A study of Mus musculus with 6 samples.

Results

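The genes of the NF-kB subunits and of their inhibitors were examined in a mouse leukaemia line after 6 days with 4'-O-methylpyridoxine (OMP) or with vehicle. The members were the 10 rows of the deposited table whose gene symbol was Nfkb1, Nfkb2, Rel, Rela, Relb, Nfkbia, Nfkbie, Nfkbiz, Tnfaip3 or Bcl3, out of 53465 gene identifiers. The OMP group comprised 3 libraries of Nras(G12D)/MLL-AF9 cells kept with 100 µM OMP, an analog of vitamin B6, and the Vehicle group comprised 3 libraries of the same cells given an equal volume of PBS. Both groups were the same leukaemic cells, with the Nras mutation and the MLL-AF9 fusion in every library and blood as the labelled tissue, and both grew in RPMI medium with serum and the mouse cytokines SCF, IL-3 and IL-6. The labels do not say whether the replicates were separate cultures, and each p-value therefore reflects spread among 3 libraries a group that could be technical replicates.

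NF-kB is a family of dimeric transcription factors built from REL subunits and held in the cytoplasm by IkB proteins until a receptor signal makes the IkB kinase (IKK) mark the IkB protein for destruction. In the canonical branch RELA and c-REL pair with p50, the product of Nfkb1. In the non-canonical branch the kinase NIK drives processing of p100, the product of Nfkb2, to p52, which pairs with RELB. Several of the genes, among them Nfkbia, Tnfaip3, Nfkb2 and Relb, are known NF-kB targets themselves, so that the pathway feeds back on its own parts. In myeloid cells the pathway is best known for the response to bacterial products and inflammatory cytokines.

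OMP-treated cells held more mRNA of both non-canonical subunits, Nfkb2 and Relb, and of Nfkbiz, Tnfaip3 and Nfkbia, which encode a nuclear IkB protein, the ubiquitin-editing enzyme A20 and a cytoplasmic IkB protein, and less mRNA of the canonical subunits Nfkb1 and Rel. Nfkbiz had the largest difference at 1.77-fold higher, the other rises were 1.26-fold to 1.62-fold, and Nfkb1 and Rel were 1.16-fold and 1.39-fold lower. Rela, Nfkbie and Bcl3 did not pass the test. The rises of Relb and Tnfaip3 were less firm. They rested on 153 and 152 reads in OMP and 111 and 99 in Vehicle, and their calls held in 11 of 16 and 8 of 15 alternative settings. The call of Nfkb1 held in 15 of 16 and missed the threshold with median-of-ratios scaling (limma adjusted p = 0.0501). RPKM, the deposited unit, gives reads per kilobase of gene, scaled to the size of the library, so levels of different genes can be set side by side. Each gene was tested with limma on log2(RPKM + 0.5) together with all 11020 genes at 1 RPKM or more in 3 or more libraries, and a gene was called at a Benjamini-Hochberg adjusted p under 0.05. All 10 members had at least 1 RPKM in all 6 libraries, so none entered through 1 group alone. In all, 7 of the 10 members were called, beside 43.0% of all genes tested. Of the members, 5 rose, where 15.4% of all genes tested rose, and 2 fell, where 27.5% of all genes tested fell. This split over all genes, 1702 higher and 3033 lower, was 2370 and 2237 with median-of-ratios scaling, 2244 and 2321 with quantile normalization and 1215 and 3973 after rescaling to TPM, while 5 members rose under each. The groups did not overlap for the same 7 members, beside 54.5% of all genes tested, with OMP above in 5 members (19.9% of all genes tested) and below in 2 (34.6%). The median log2 fold change was 0.18 over the members and -0.09 over all genes tested.

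**Figure D1:**
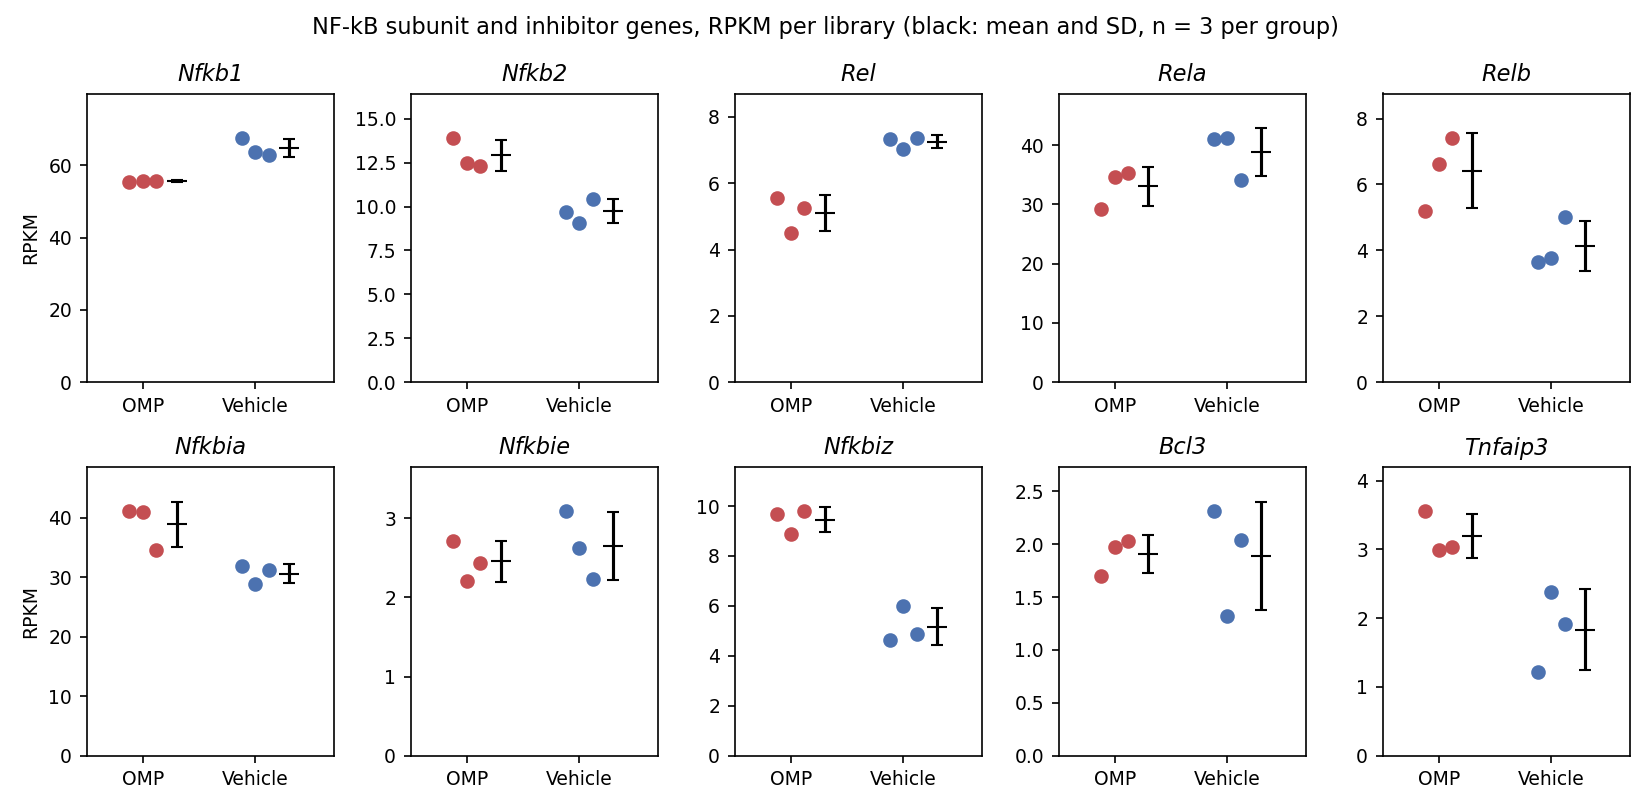
RPKM of each member in each library (points, OMP left and Vehicle right), with the mean and SD of 3 libraries in black and every axis starting at 0. OMP and Vehicle points do not overlap for Nfkb1, Nfkb2, Rel, Relb, Nfkbia, Nfkbiz and Tnfaip3, and they overlap for Rela, Nfkbie and Bcl3.

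The libraries were shallow, with recovered totals of 3494986 to 4247619 reads, and low genes rest on few reads. The OMP libraries lay at 25.3 to 26.6 and the Vehicle libraries at -27.1 to -24.6 on the first principal component, which held 54.1% of the variance, so no library stood between the groups. Marker counts below stand beside the shares over all genes tested, of which 15.4% rose and 27.5% fell. Of 8 markers of the myeloid lineage all were tested, 6 rose and 1, Ctsg, fell. Their summed level was 1509 to 1586 RPKM in OMP and 1808 to 1854 RPKM in Vehicle. Without Ctsg, the most abundant over the 6 libraries, the other 7 summed to 1054 to 1087 RPKM in OMP and 820.4 to 844.6 RPKM in Vehicle. Of 8 B cell markers 0 were tested, Ms4a1, Pax5 and Ebf1 were at 0 in all libraries, and the sum was 0.419 to 0.658 RPKM in OMP and 0.168 to 0.551 RPKM in Vehicle. Of 8 erythroid markers 0 were tested, Hba-a2, Hbb-bs and Hbb-bt were at 0, and the sum was 0.160 to 0.724 RPKM in OMP and 0.479 to 0.959 RPKM in Vehicle. Of 8 T and NK cell markers only Lck was tested, Cd3e, Cd4, Cd8a, Ncr1 and Klrb1c were at 0, and the sum was 3.45 to 6.15 RPKM in OMP and 3.34 to 3.39 RPKM in Vehicle. Trac, which was not tested, had 1.5001 ± 0.623 RPKM in OMP and 0.183 ± 0.159 RPKM in Vehicle. The 8 stroma and endothelium markers summed to 57.2 to 59.5 RPKM in OMP and 84.1 to 88.3 RPKM in Vehicle, nearly all from Pecam1, which myeloid cells also express, while Col1a2, Dcn, Pdgfra and Kdr were at 0. Granulocyte maturation markers moved with the treatment: 10 of 12 rose and 1 fell. Their summed level was 8962 to 9476 RPKM in OMP and 2678 to 2787 RPKM in Vehicle. Among the rises, Ltf had 7.70 ± 1.43 RPKM in OMP and 0.788 ± 0.277 RPKM in Vehicle. With a Vehicle mean under 1 RPKM, Ltf met the filter through the OMP libraries, so its rise is no independent support. Of the 10 monocyte and macrophage markers 7 were tested, 3 rose and 1 fell, and the sum was 2632 to 2754 RPKM in OMP and 2697 to 2755 RPKM in Vehicle. Nearly all of it was Ly6c2, and the other 9 summed to 161.2 to 165.4 RPKM in OMP and 99.98 to 104.2 RPKM in Vehicle. Most of that difference was Cd14, at 76.0 ± 2.64 RPKM in OMP and 23.6 ± 1.02 RPKM in Vehicle. Cd68 and Fcgr1 also rose, Ccr2 fell, and Csf1r and Adgre1 were not called. Of the 12 immediate-early and handling-stress genes 10 were tested, 7 rose and 3 fell. Among the rises, Fosb had 1.69 ± 0.543 RPKM in OMP and 0.506 ± 0.214 RPKM in Vehicle. Fosb too met the filter through the OMP libraries, so its rise is no independent support. The untested Hspa1a and Hspa1b averaged 0 and 0.0654 RPKM in OMP and 0.0275 and 0.0280 RPKM in Vehicle. None of the 12 was at 0 in all 6 libraries, and their sum was 664.9 to 686.6 RPKM in OMP and 428.0 to 454.9 RPKM in Vehicle. Hspa8 carried that sum, at 503 ± 7.12 RPKM in OMP and 229 ± 11.1 RPKM in Vehicle. The other 11 genes summed to 166.6 to 175.1 RPKM in OMP and 206.7 to 213.1 RPKM in Vehicle, the opposite order. Of these 11, Ier2 had 68.1 ± 1.08 RPKM in OMP and 119.4 ± 1.88 RPKM in Vehicle. Egr1 had 13.4 ± 0.324 RPKM in OMP and 26.8 ± 2.46 RPKM in Vehicle. Nr4a1 fell as well, while Fos, Fosb, Jun, Junb, Atf3 and Dusp1 rose, so the sum does not describe most of these genes. The part of these lists in the results below was not tested, and in bulk RNA fewer cells of a type and less RNA per cell cannot be told apart.

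Among the subunits, Nfkb1 (ENSMUSG00000028163, GRCm38 chromosome 3, 135584655 to 135691547, minus strand) encodes p105, the precursor of p50, which also acts as an inhibitor before it is processed. Nfkb1 had 55.4, 55.7 and 55.8 RPKM in OMP libraries 1 to 3, against 67.6, 63.6 and 62.9 RPKM in Vehicle libraries 1 to 3. Every OMP library was below every Vehicle library. The mean was 55.6 ± 0.192 RPKM in OMP and 64.7 ± 2.57 RPKM in Vehicle (SD, n = 3 each), 1.16-fold lower (log2 fold change -0.22 ± 0.04 SE, limma adjusted p = 0.00471). With median-of-ratios scaling the log2 fold change was -0.13 and the limma adjusted p = 0.0501, just past the threshold. Scaling moved the whole table: the median over all genes was -0.09 as deposited, -0.0056 with median-of-ratios scaling and -0.17 after rescaling to TPM, and Nfkb1 was below 0 under each.

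Rel (chromosome 11, 23736847 to 23770970, minus strand) encodes c-REL, a subunit with a transactivation domain that is prominent in blood cells. Rel had 5.56, 4.49 and 5.26 RPKM in the OMP libraries, against 7.35, 7.04 and 7.38 RPKM in the Vehicle libraries. The groups were separated by more than their spread. The fall was 1.39-fold (log2 fold change -0.47 ± 0.11 SE, adjusted p = 0.00768 by limma), and it stayed past the threshold in all 16 alternatives, at log2 fold changes of -0.58 to -0.35.

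Rela (chromosome 19, 5637483 to 5648130, plus strand) encodes p65, the main transactivating subunit of the canonical dimer. Rela had 29.3, 34.6 and 35.3 RPKM in the OMP libraries, against 41.1, 41.3 and 34.2 RPKM in the Vehicle libraries. The groups overlapped, because Vehicle replicate 3 was below OMP replicates 2 and 3. The log2 fold change of -0.23 had a 95% interval from -0.45 to -0.01, and the limma adjusted p = 0.0852 missed the threshold. It passed after rescaling to TPM (limma adjusted p = 0.0242), with limma-voom on recovered reads (0.0132) and without Vehicle replicate 3 (0.0246).

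The non-canonical subunits moved the other way. Nfkb2 (ENSMUSG00000025225, chromosome 19, 46304320 to 46312385, plus strand) had 13.9, 12.5 and 12.3 RPKM in the OMP libraries, against 9.68, 9.08 and 10.4 RPKM in the Vehicle libraries. Every OMP library was above every Vehicle library. The mean was 12.9 ± 0.884 RPKM in OMP and 9.73 ± 0.679 RPKM in Vehicle, 1.31-fold higher (log2 fold change 0.39 ± 0.09 SE, adjusted p = 0.00647 by limma). All 16 alternatives kept it past the threshold. Annotated exons of Nfkb2 share 830 bases with genes on the opposite strand, Psd and AC114539.1, and the strand setting of the counting is not given in the sources used here. Reads of these genes therefore cannot be told apart from those of Nfkb2 there, while Psd itself had 1.08 ± 0.444 RPKM in OMP and 0.978 ± 0.0650 RPKM in Vehicle.

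Relb (ENSMUSG00000002983, chromosome 7, 19606217 to 19629438, minus strand) encodes the partner of p52 and had 5.18, 6.63 and 7.42 RPKM in the OMP libraries, against 3.63, 3.76 and 5.01 RPKM in the Vehicle libraries. The lowest OMP library was only just above the highest Vehicle library. Relb was 1.49-fold higher, on 153 reads in OMP and 111 in Vehicle (log2 fold change 0.57 ± 0.17 SE, limma adjusted p = 0.0223). The call was lost without OMP replicate 2 (limma adjusted p = 0.0605), OMP replicate 3 (0.0769), Vehicle replicate 1 (0.0692) or Vehicle replicate 2 (0.0665), and without the filter on low values (0.0667). The log2 fold change was 0.47 to 0.71 over the alternatives.

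Because subunits moved in opposite directions, the make-up of the subunit transcripts differed between the groups. The summed level of the 5 subunit genes was 109.3, 113.9 and 116.1 RPKM in the OMP libraries, against 129.4, 124.8 and 119.9 RPKM in the Vehicle libraries. Nfkb2 and Relb together made up 17.5%, 16.8% and 17.0% of that sum in the OMP libraries, against 10.3%, 10.3% and 12.9% in the Vehicle libraries. The share was thus higher in every OMP library, by 5.93 percentage points on average. Nfkb1 stayed the most abundant subunit, at 49.2% ± 1.34 of the sum in OMP and 51.9% ± 0.823 in Vehicle (SD, n = 3 each). The ratio of Nfkb1 to Nfkb2 was 3.98, 4.46 and 4.52 in the OMP libraries, against 6.99, 7.01 and 6.03 in the Vehicle libraries. No test was run on these shares and ratios, which describe mRNA and not the protein dimers.

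**Figure D2:**
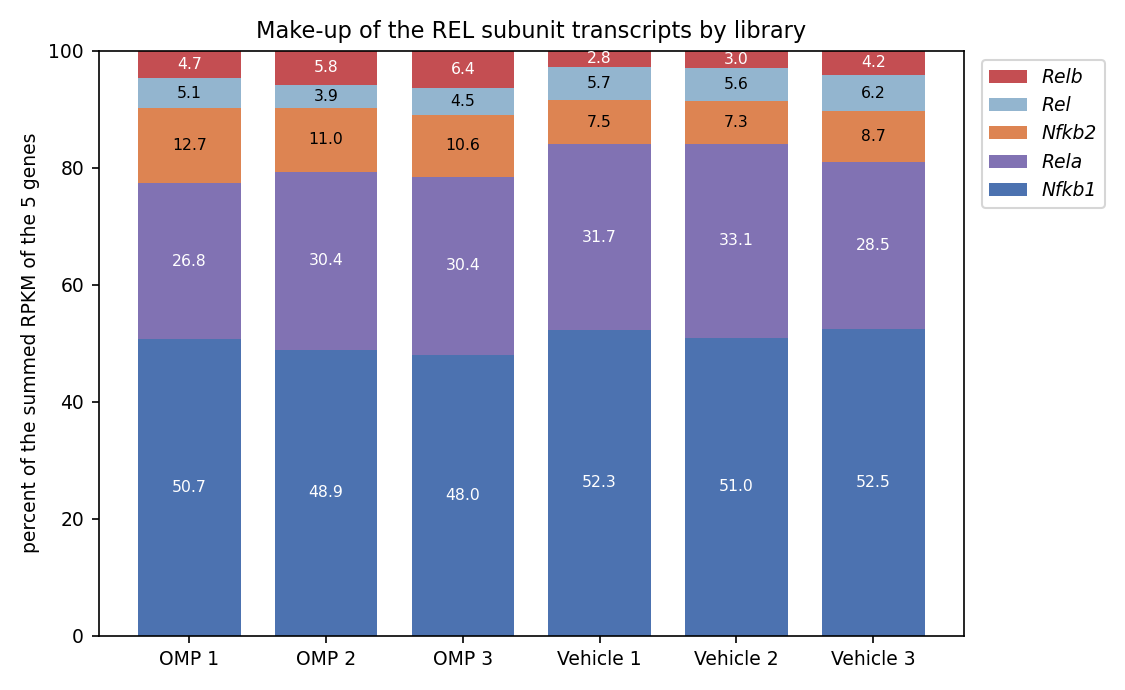
Share of each REL subunit gene in the summed RPKM of the 5 genes, as stacked bars that add to 100% for each OMP and Vehicle library, with the percentages printed. Nfkb2 and Relb together take 16.8% to 17.5% in the OMP libraries and 10.3% to 12.9% in the Vehicle libraries.

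Of the IkB genes, Nfkbia encodes IkBalpha, the classical inhibitor that is destroyed and made again after each round of activation (ENSMUSG00000021025, chromosome 12, 55489410 to 55492647, minus strand). Nfkbia had 41.2, 41.0 and 34.6 RPKM in the OMP libraries, against 31.9, 28.8 and 31.2 RPKM in the Vehicle libraries. OMP replicate 3 was the lowest of its group and still above all Vehicle libraries. Nfkbia was 1.26-fold higher (log2 fold change 0.34 ± 0.08 SE, adjusted p = 0.00837 by limma) and stayed past the threshold in all 16 alternatives. Its level relative to Rela was 1.41, 1.19 and 0.979 in the OMP libraries, against 0.776, 0.697 and 0.913 in the Vehicle libraries.

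Nfkbiz encodes IkBzeta, a nuclear IkB protein that acts as a co-activator at a subset of inflammatory genes (ENSMUSG00000035356, chromosome 16, 55811375 to 55838899, minus strand). Nfkbiz had 9.66, 8.89 and 9.80 RPKM in the OMP libraries, against 4.62, 6.00 and 4.86 RPKM in the Vehicle libraries. The lowest OMP library stood well above the highest Vehicle library. The mean was 9.45 ± 0.488 RPKM in OMP and 5.16 ± 0.738 RPKM in Vehicle, with 419 reads in OMP and 257 in Vehicle (log2 fold change 0.82 ± 0.11 SE, limma adjusted p = 6.71e-04). The limma adjusted p was at most 0.00355 in the 16 alternatives.

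Nfkbie and Bcl3 encode the other IkB proteins among the members: IkBepsilon, a cytoplasmic inhibitor, and BCL-3, a nuclear protein that binds p50 and p52 homodimers. Nfkbie had 2.72, 2.21 and 2.44 RPKM in the OMP libraries, against 3.09, 2.62 and 2.24 RPKM in the Vehicle libraries. Bcl3 had 1.701, 1.98 and 2.03 RPKM in the OMP libraries, against 2.31, 1.32 and 2.04 RPKM in the Vehicle libraries. Exons of Bcl3 share 161 bases with the antisense gene Gm16175, which was listed at 0. The groups overlapped for both genes, which rested on 64 and 38 reads in OMP and on 77 and 42 reads in Vehicle. The 95% interval of the fold ran from 0.716 to 1.24 for Nfkbie (limma adjusted p = 0.716) and from 0.718 to 1.45 for Bcl3 (limma adjusted p = 0.928). Folds within these limits are compatible with the data, so no call does not mean no change.

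Tnfaip3 encodes A20, an enzyme that edits ubiquitin chains and stops signalling upstream of IKK (ENSMUSG00000019850, chromosome 10, 19000910 to 19015657, minus strand). Tnfaip3 had 3.56, 2.99 and 3.04 RPKM in the OMP libraries, against 1.21, 2.38 and 1.92 RPKM in the Vehicle libraries. All OMP libraries were above all Vehicle libraries, and the Vehicle libraries differed widely among themselves. Tnfaip3 was 1.62-fold higher (log2 fold change 0.69 ± 0.22 SE, limma adjusted p = 0.0332), on 152 reads in OMP and 99 in Vehicle, a read rate 1.72 times that of Vehicle (exact 95% interval 1.33 to 2.24, counting error only). The call was lost without OMP replicate 1 (limma adjusted p = 0.0964), OMP replicate 2 (0.0595), OMP replicate 3 (0.0663), Vehicle replicate 1 (0.0816) or Vehicle replicate 3 (0.0585), and without the filter on low values (0.0947). The direction was the same in each, at log2 fold changes of 0.48 to 0.86 over the alternatives.

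**Figure D3:**
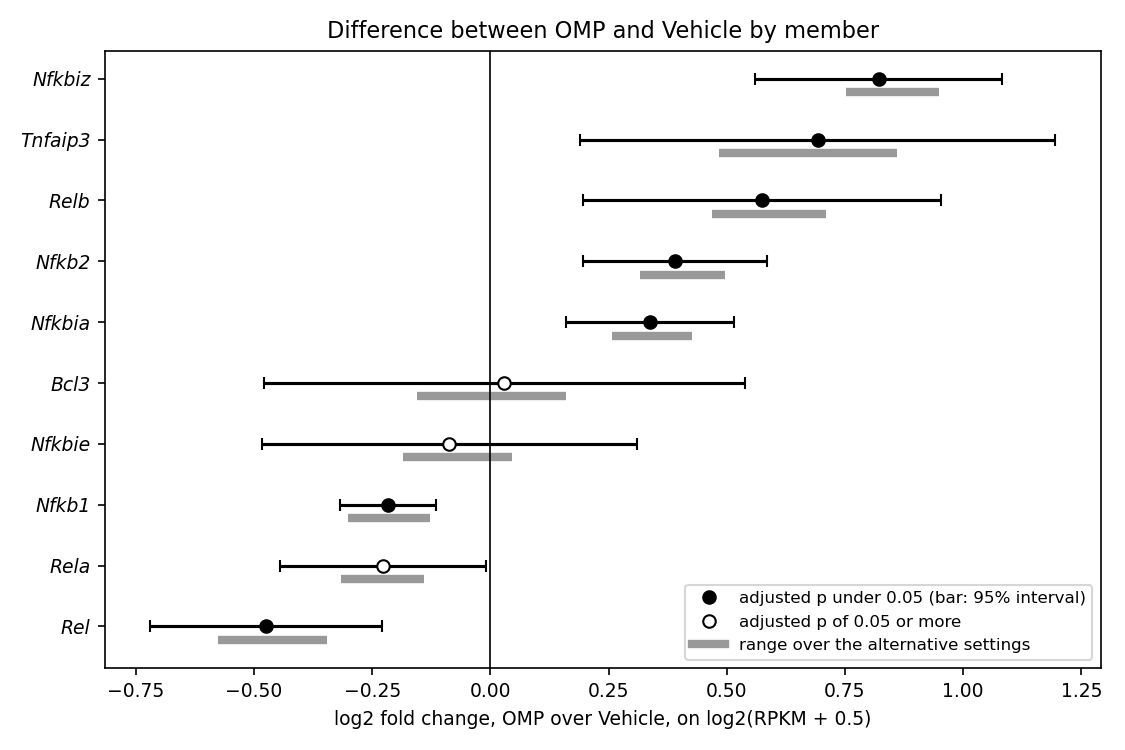
Log2 fold change of each member, OMP over Vehicle, on the log2(RPKM + 0.5) scale, with the 95% interval (black bar) and the range over the alternative settings (grey bar). Filled points mark the 7 members with a limma adjusted p under 0.05, and open points mark Rela, Nfkbie and Bcl3.

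The order of the members by level differed between the groups. In OMP libraries Nfkb1 (55.6 RPKM on average) was followed by Nfkbia (38.9) and Rela (33.1), which did not differ beyond their spread, then by Nfkb2 (12.9) and Nfkbiz (9.45). Relb (6.41) and Rel (5.10) overlapped, and Tnfaip3 (3.20), Nfkbie (2.46) and Bcl3 (1.90) came last, each above the next in every OMP library. In Vehicle libraries Nfkb1 (64.7 RPKM) was followed by Rela (38.8), Nfkbia (30.6), Nfkb2 (9.73) and Rel (7.25), each above the next in every library. Nfkbiz (5.16) and Relb (4.13) overlapped, as did Nfkbie (2.65), Bcl3 (1.89) and Tnfaip3 (1.83) in turn. Rela was thus above Nfkbia in every Vehicle library, which was not so in OMP, and Relb was below Rel in every Vehicle library. These levels place Nfkb1 above 87.5% of the genes tested and Bcl3 above 10.6%.

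Since several members are known NF-kB targets, their promoters were searched for the kB consensus decamer on both strands. RefSeq promoter windows (build GRCm38.p6, 250 bases before to 50 after the start) were at hand for 7 members and not for Nfkb1, Relb and Nfkbiz. A match was present in 6 of the 7 members with a window, all but Rela, and in 5.13% of 26994 genes with a window. The members with a match included 3 genes that rose, Nfkb2, Nfkbia and Tnfaip3, the gene Rel that fell, and the uncalled genes Nfkbie and Bcl3. Matches that overlap were merged into 1 stretch. The 150 bases before the start are shown for the 3 genes that rose, for Rel and for Rela, 5′ to 3′ on the strand of the gene, with capitals for the matches.
Nfkb2 (chr19:46304587-46304736, + strand): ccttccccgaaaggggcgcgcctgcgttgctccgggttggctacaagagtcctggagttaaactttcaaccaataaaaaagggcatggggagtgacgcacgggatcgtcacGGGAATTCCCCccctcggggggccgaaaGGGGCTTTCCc
Nfkbia (chr12:55492648-55492797, - strand): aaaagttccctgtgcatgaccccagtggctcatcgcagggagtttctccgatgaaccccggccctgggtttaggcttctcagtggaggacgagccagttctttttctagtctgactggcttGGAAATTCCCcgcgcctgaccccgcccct
Tnfaip3 (chr10:19015411-19015560, - strand): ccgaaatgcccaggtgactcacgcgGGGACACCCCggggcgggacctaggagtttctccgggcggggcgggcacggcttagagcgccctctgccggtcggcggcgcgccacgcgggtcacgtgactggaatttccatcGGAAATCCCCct
Rel (chr11:23770970-23771119, - strand): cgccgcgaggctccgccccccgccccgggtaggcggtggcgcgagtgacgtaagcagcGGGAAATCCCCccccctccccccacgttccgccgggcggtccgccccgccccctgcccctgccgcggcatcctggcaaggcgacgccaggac
Rela (chr19:5637391-5637540, + strand): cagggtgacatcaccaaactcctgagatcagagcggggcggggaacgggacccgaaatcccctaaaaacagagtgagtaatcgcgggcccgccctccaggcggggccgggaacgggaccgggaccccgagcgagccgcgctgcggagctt
In the Nfkb2 window a stretch of 11 bases, GGGAATTCCCC, began 39 bases before the start and another, GGGGCTTTCC, 11 bases before it. The Nfkbia window had GGAAATTCCC at 29 bases before the start, and the Tnfaip3 window had GGAAATCCCC at 12 bases and GGGACACCCC at 125 bases before it. The Rel window held GGGAAATCCCC at 92 bases before the start. Nfkb2 and Tnfaip3 have further annotated starts: both other Nfkb2 windows held a match, and the other Tnfaip3 window held none. A match describes letters and not a bound site. Among the members with a window, the presence of a match did not separate those that rose from Rel, which fell. Nfkb1, which also fell, and Relb and Nfkbiz, which rose, had no window.

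Around the members, 133 genes in 8 lists by role were described, of which 94 were tested. Of these 21 rose and 24 fell, 47.9% in all, beside 43.0% of all genes tested, and the median log2 fold change was -0.08. The rises were 22.3% and the falls 25.5% of the genes tested, where 15.4% of all genes rose and 27.5% fell. The balance turned with the scaling, with 24 higher and 17 lower under median-of-ratios scaling, 24 and 16 under quantile normalization, and 17 and 32 after rescaling to TPM. The lists were not compared with each other by a test. Among the tested genes, 3 (Nlrc3, Cxcl2 and Csf2) met the filter only through the OMP libraries, and their rises are therefore no independent support; without them 18 genes rose. The remaining 39 genes were under the filter and averaged at most 1.03 RPKM in OMP and 0.877 RPKM in Vehicle, among them Il1a, Il1b, Il6, Ccl5, Cxcl10, Cd40 and Map3k8. Some of them had unequal reads, chosen after their values were seen. Traf1 had 29 reads in OMP and 7 in Vehicle, Il33 26 and 9, and Vcam1 17 and 4. Tnfrsf11a, at 5 and 14, and Tnfsf13b, at 2 and 9, went the other way, and none of these was tested.

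Among other IkB family genes, Nfkbib (IkBbeta, a cytoplasmic inhibitor) had 22.4 ± 1.53 RPKM in OMP and 22.4 ± 1.06 RPKM in Vehicle (log2 fold change -0.0023, 95% interval -0.16 to 0.16). Nfkbid (IkBNS, a nuclear IkB protein) had 10.1 ± 0.805 RPKM in OMP and 9.36 ± 1.57 RPKM in Vehicle (95% interval -0.17 to 0.41). Nfkbil1, an IkB-like gene, had 16.6, 24.1 and 15.2 RPKM in the OMP libraries, against 29.95, 25.0 and 28.8 RPKM in the Vehicle libraries. It was 1.51-fold lower (limma adjusted p = 0.0151), and the call was lost without OMP replicate 1 (0.0505). Both Nfkbib and Nfkbid overlapped between the groups and were not called (limma adjusted p = 0.983 for Nfkbib and 0.488 for Nfkbid).

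Of 14 ligand genes 4 were tested with limma, 2 rose and 0 fell, with 0 lower at an unadjusted p under 0.05 and 0 lower by limma-voom. The rises were 50% of these 4 genes, beside 15.4% of all genes tested, and 27.5% of all genes tested fell. Tnf, a classical ligand of the canonical pathway, had 24.1, 21.1 and 20.2 RPKM in the OMP libraries, against 15.5, 15.8 and 12.5 RPKM in the Vehicle libraries, 1.48-fold higher (limma adjusted p = 0.00290). Il1rn, which blocks the interleukin-1 receptor, had the largest difference of the ligand list at 7.60-fold higher (limma adjusted p = 2.22e-06). Of 14 tested receptor genes 5 rose (35.7%) and 3 fell (21.4%), beside 15.4% and 27.5% of all genes tested. The genes that rose were Cd14, Tlr13, Tlr4, Tlr2 and Il1r2, a decoy receptor for interleukin-1 that was chosen after its values were seen (2.20-fold higher). Cd14, the lipopolysaccharide co-receptor, was 3.17-fold higher and Tlr13, a sensor of bacterial ribosomal RNA, 2.47-fold higher, at 13.5 ± 1.20 RPKM in OMP and 5.13 ± 0.306 RPKM in Vehicle. Tlr4 and Tlr2, which sense lipopolysaccharide and lipoproteins and were chosen after their values were seen, rose 1.57-fold and 1.52-fold. Other receptor genes of the same kind were not called: the log2 fold changes were -0.50 for Tlr1 (adjusted p = 0.0894 by limma), -0.43 for Ly96 (0.281) and 0.0044 for Tlr6 (0.987), and these too were chosen after their values were seen. The 3 genes that fell encode receptors of the TNF family and were all chosen after their values were seen: Tnfrsf1a (1.34-fold lower), Tnfrsf1b (1.27-fold lower) and Ltbr (1.13-fold lower).

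At the kinase step some genes fell and the others were not called. Of 12 tested kinase and kinase-partner genes 0 rose and 4 fell in limma, with 0 higher at an unadjusted p under 0.05 and 0 higher by limma-voom. The falls were 33.3% of these genes, near the 27.5% of all genes tested that fell, and 15.4% of all genes tested rose. The median log2 fold change was -0.19, beside -0.09 over all genes tested. Chuk (IKKalpha) had 44.1 ± 1.30 RPKM in OMP and 45.1 ± 0.271 RPKM in Vehicle, and Ikbkg (NEMO, the regulatory subunit) had 11.4 ± 0.370 RPKM in OMP and 11.1 ± 0.553 RPKM in Vehicle, and neither was called. Ikbkb (IKKbeta, the kinase of the canonical branch) was 1.15-fold lower (limma adjusted p = 0.0175). That call was lost with median-of-ratios scaling (0.119) and quantile normalization (0.128), and without OMP replicate 2 (0.0540), Vehicle replicate 1 (0.0527) or Vehicle replicate 3 (0.0515). Tab2, an adaptor of the kinase TAK1, was 1.20-fold lower and Ikbke, an IKK-related kinase, 1.39-fold lower, both past the threshold in all alternatives. Map3k14, the gene of NIK, had 1.68 ± 0.305 RPKM in OMP and 2.22 ± 0.495 RPKM in Vehicle, with 77 and 114 reads, and was not called (limma adjusted p = 0.280).

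Among adaptors and receptor-proximal enzymes 20 were tested, 3 rose (15%) and 8 fell (40%), beside 15.4% and 27.5% of all genes tested. Bcl10, a scaffold of the CARD complexes, had 31.0, 29.0 and 35.6 RPKM in the OMP libraries, against 46.8, 44.6 and 44.9 RPKM in the Vehicle libraries, 1.42-fold lower (limma adjusted p = 8.38e-04). Its myeloid partner Card9 was 1.24-fold higher, at 103.2 ± 7.30 RPKM in OMP and 82.9 ± 1.07 RPKM in Vehicle (limma adjusted p = 0.00217). Traf3, which keeps NIK low in resting cells, was 1.17-fold higher (limma adjusted p = 0.0261), but this call was lost after rescaling to TPM (0.122) and without any 1 of the 6 libraries (0.0508 to 0.0903). Its partners Traf2 (limma adjusted p = 0.0853) and Birc3 (limma adjusted p = 0.293) were not called. Traf2 passed after rescaling to TPM (0.0234), with limma-voom (0.0474) and without OMP replicate 2 (0.0380).

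Of 30 target genes named in textbooks, apart from the members, 17 were tested, 8 rose and 3 fell, and the median log2 fold change was 0.16. The rises were 47.1% and the falls 17.6% of the 17 genes, where 15.4% of all genes tested rose and 27.5% fell. The median over all genes tested was -0.09. Ccl3 and Ccl4, chemokines of myeloid cells, were 1.58-fold and 4.88-fold higher, with Ccl3 at 475, 481 and 459 RPKM in the OMP libraries, against 290, 306 and 299 RPKM in the Vehicle libraries. The remaining rises, all chosen after their values were seen, were Cxcl2, Bcl2l1, Bcl2a1d, Csf1, Csf2 and Icam1, and the falls were Irf1, Cflar and Gadd45b. Cxcl2 and Csf2 met the filter only through the OMP libraries, which leaves 6 rises without them. Bcl2a1d is one of several near-identical copies, so its share of the reads is uncertain. Csf2 rested on 15 reads in OMP and 2 in Vehicle, a read rate 8.41 times that of Vehicle (exact 95% interval 1.96 to 75.8, counting error only). Called targets thus lay in both directions, and what set the direction was not tested.

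**Figure D4:**
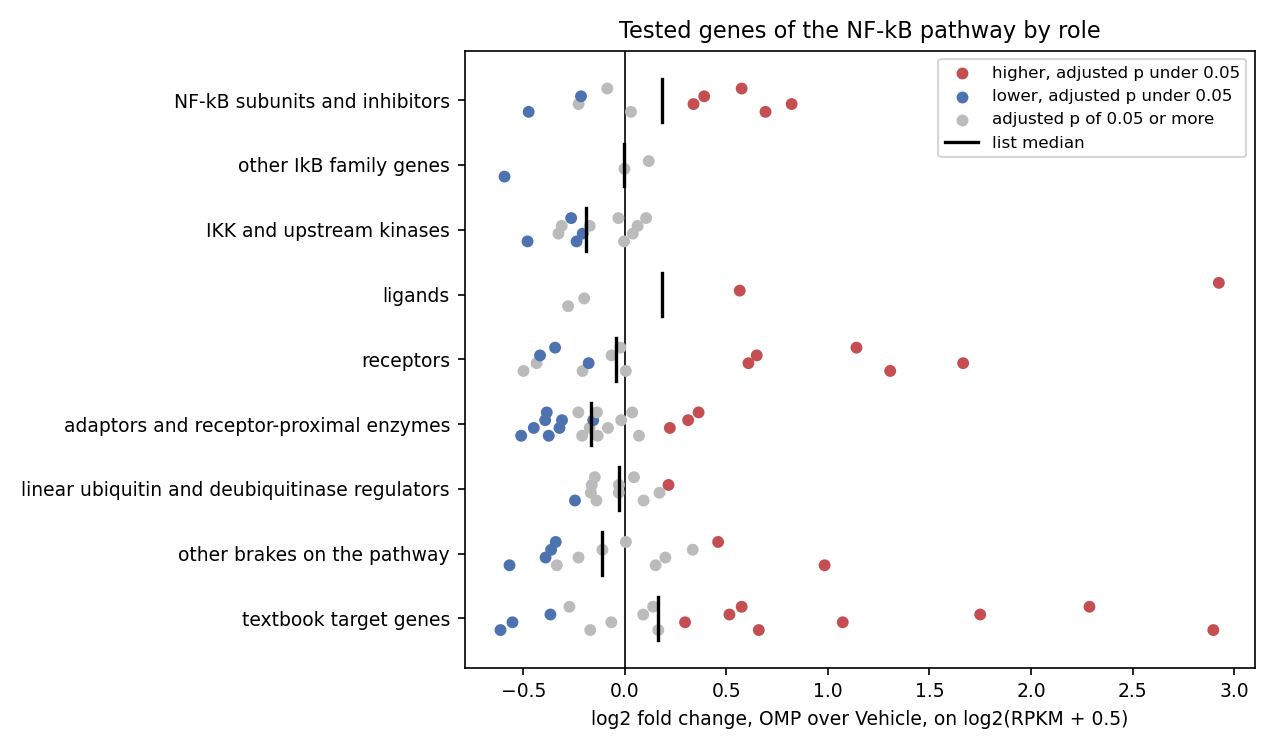
Log2 fold change, OMP over Vehicle, of every tested gene of the members and of the 8 pathway lists (1 row per list), coloured by whether the limma adjusted p was under 0.05 and in which direction, with the list median as a black line. The member median is 0.18, the kinase median -0.19 and the target median 0.16, beside -0.09 over all genes tested (not drawn).

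Over the 6 libraries, Nfkbiz was the called member with the largest change, and the genes most like it in log2(RPKM + 0.5) were Prep, Ddx17, Mtor, Synj1 and Ssb (Pearson r of 0.993 to 0.997). The 6 libraries fall into the same groups for every gene, and 430 of the 9893 genes compared had an r over 0.95, so this likeness is a description.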

How the data were processed

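Poly(A)-selected RNA of 6 samples was sequenced after Illumina TruSeq preparation, per the labels' protocols. The authors deposited RPKM values, 1 column per library, matched here by title. Tools in the submitters' processing notes are featureCounts 1.6.3, STAR 2.5.3a, Trimmomatic 0.36 and FastQC 0.11.5, with build mm10 (GRCm38). The sources used here state neither annotation release nor strand setting. Whole reads were recovered from the RPKM steps for all 19970 genes above 0 (relative tolerance 1e-06, 94.6% at a length annotated in GENCODE M21, whose positions are given). Totals were between 3494986 and 4247619 recovered reads, and a 1 kb gene with 3 reads would have 0.706 to 0.858 RPKM. Reads carry no molecular identifiers, so intervals cover counting error only.

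OMP was compared with Vehicle by limma 3.58.1 in R 4.3.3 (two-sided, no covariates, variance trend, pseudocount 0.5), so a fold understates changes of low genes. The fit was tested on simulated data. The members and lists were chosen with earlier results of these data known. Named genes were the 10 members, the 2 genes with the smallest p of each pathway list, 12 genes fixed by name, and the 5 genes most like the most changed member, leaving out Gm and Rik models and pseudogenes. Libraries of a group differed by more than sampling noise (chi-square per degree of freedom 1.19 to 1.61); no library was treated as a repeat of another. Plots used Python 3.11.15 with matplotlib 3.10.9.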

Additional observations from a re-analysis of the deposited data

How the results depend on the processing

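The alternatives were pseudocounts of 1 and 0.1, no filter, a filter at an RPKM of 5, median-of-ratios scaling, quantile normalization, rescaling to TPM, limma-voom on recovered reads, a robust prior, the replicate block and leaving out each library in turn, 16 settings in all. Between 3952 and 5332 genes were called, and 3952 to 4207 when 1 library was left out. Of the members 5 to 8 were called, and 5 to 7 when 1 library was left out. Of the pathway genes 37 to 50 were called, and 37 to 43 when 1 library was left out. Scaling moved the split over all genes from the 1702 higher and 3033 lower as deposited, with 2370 higher and 2237 lower under median-of-ratios scaling, 2244 and 2321 under quantile normalization, and 1215 and 3973 after rescaling to TPM, while the members split 5 and 1, 5 and 2, and 5 and 3. For single members 141 values stayed on the same side of the threshold, 13 no longer passed and 3 newly passed. No called member changed sign, while the uncalled Nfkbie (-0.18 to 0.05) and Bcl3 (-0.15 to 0.16) did. For the other named genes 368 stayed, 24 no longer passed and 7 newly passed, and no called gene changed sign. Without 1 library, the Nfkb2 and Relb share differed by 5.50 to 6.80 percentage points, the Nfkb1 to Nfkb2 ratio by -2.68 to -2.18 and the Nfkbia to Rela ratio by 0.286 to 0.4998. Replicate numbers did not pair the libraries: after removing group means, r was -0.0024, 0.015 and 0.0069 between libraries of equal number, and every library correlated best with one of another number. With the replicate block 4445 genes, 6 members and 42 pathway genes were called, and Tnfaip3 (0.0584) and the pathway genes Traf3 (0.0559) and Cyld (0.0873) missed the threshold by limma adjusted p, and no other named gene changed its call. Bcl3, Nfkbie, Tnfaip3 and Relb rested on 38 to 153 reads in OMP and 42 to 111 in Vehicle, and limma-voom on reads kept the calls of Tnfaip3 and Relb. The causes of lost calls were not tested.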

Other observations

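Among the regulators of ubiquitin chains on the pathway 11 genes were tested, 1 rose and 1 fell, 9.09% each. Of all genes tested 15.4% rose and 27.5% fell. The gene that rose was Tax1bp1, an adaptor of A20, at 163.6 ± 9.81 RPKM in OMP and 140.8 ± 5.38 RPKM in Vehicle (limma adjusted p = 0.0103, lost after rescaling to TPM at 0.0903). Cyld, a deubiquitinase, was the 1 gene that fell, at 10.3 ± 0.835 RPKM in OMP and 12.3 ± 0.763 RPKM in Vehicle (limma adjusted p = 0.0486). The call held in 7 of 16 alternatives, with adjusted p from 0.0033 to 0.219. Tnip1, another partner of A20, had 31.4 ± 1.68 RPKM in OMP and 27.8 ± 1.76 RPKM in Vehicle and was not called (limma adjusted p = 0.0684, and 0.0144 with median-of-ratios scaling).

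Other genes listed as brakes on NF-kB were called about as often as genes in general. Of 13 tested genes 2 rose (15.4%) and 4 fell (30.8%), beside 15.4% and 27.5% of all genes tested. Peli1, a ubiquitin ligase of receptor signalling, had 6.41 ± 0.710 RPKM in OMP and 9.71 ± 0.533 RPKM in Vehicle (1.48-fold lower, limma adjusted p = 0.00263). Pdlim2, a nuclear ubiquitin ligase of p65, had 21.9 ± 1.57 RPKM in OMP and 28.8 ± 1.599 RPKM in Vehicle (1.31-fold lower, limma adjusted p = 0.00260). The rises were Nkrf, an NF-kB repressing factor, and Nlrc3, both chosen after their values were seen, at 1.37-fold and 1.98-fold higher. Nlrc3, at 2.37 ± 0.310 RPKM in OMP and 0.947 ± 0.125 RPKM in Vehicle, met the filter only through the OMP libraries, so its call is no independent support.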
